A study of Homo sapiens with 6 samples.

Results

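DNA replication is licensed in G1, when the origin recognition complex, CDC6 and CDT1 load rings of the MCM2 to MCM7 proteins onto DNA. In S phase the ring is joined by CDC45 and the GINS complex, and the product, called CMG, is the helicase that unwinds DNA at the fork, with MCM10 acting at its activation. Transcription of many of these genes rises towards S phase under E2F transcription factors, so their RNA is often read with proliferation. The genes described here are the 6 ring subunits (MCM2, MCM3, MCM4, MCM5, MCM6 and MCM7), the loading factors CDC6 and CDT1, and the activation factors MCM10 and CDC45. They were chosen by symbol. All 10 were found among the 16376 genes of the table, and all 10 passed the filter on low values.

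The cells were of HOS, a line established from a human osteosarcoma and labelled wild type. Cells given Agrimol B, a phloroglucinol derivative of agrimony plants, for 24 h (3 libraries) were compared with control cells for which no treatment is listed (3 libraries). Neither the dose nor any solvent in the control cells is stated. Nothing says that the libraries of a group came from separate cultures, so p-values reflect how far these particular libraries vary, and that variation may be technical.

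Values are FPKM, fragments scaled to transcript length and to sequencing depth, so levels of different genes are set side by side per length. Differences are on the log2(FPKM + 1) scale, Agrimol B minus control, from limma with adjustment over all 12143 genes tested, and a gene is called at an adjusted p under 0.05. Their median over all genes tested was 0.07. Totals of the table lay between 352990 and 359537 FPKM per library. Genes of very few reads gave depths of 1.00 to 1.19 with Agrimol B and 0.99 to 1.04 in control, relative to the first control library, and the number of reads is unknown. Vimentin (VIM) stood at 540.2 FPKM with Agrimol B and 704 FPKM in control, the collagen gene COL1A1 at 293 and 419 FPKM, and the osteoblast factor RUNX2 at 6.25 and 5.15 FPKM. The osteoblast gene BGLAP was near 0 (0.0850 and 0.146 FPKM). The 7 mesenchymal and osteoblast markers found summed to 1006 to 1061 FPKM with Agrimol B and 1455 to 1545 FPKM in control. The 3 epithelial markers summed to 12.9 to 17.9 and 13.5 to 14.5 FPKM, nearly all of it EPCAM, and the epithelial keratin KRT19 stood at 1.95 and 0.0817 FPKM. The 2 blood markers found summed to 0.393 to 0.774 and 1.19 to 1.81 FPKM, and the endothelial pair to at most 0.05 and 0.433 FPKM. The blood marker PTPRC was at 0.0193 FPKM with Agrimol B and listed at 0 in control. The part of these shifts in the results was not tested.

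After 24 h with Agrimol B, 8 of the 10 genes had fallen. All 6 ring subunits and MCM10 were lower, by 1.28-fold to 1.6-fold, and CDT1 was lower by 1.15-fold. CDC6 and CDC45 did not pass the test, CDC6 standing 1.10-fold higher and CDC45 1.11-fold lower. Of all tested genes 52.0% were called, 30.6% higher and 21.4% lower with Agrimol B. The median log2 difference of the 10 genes was -0.43. The groups did not overlap for any of the 10 genes, 9 being lower and 1 higher with Agrimol B. Of all tested genes 62.2% did not overlap either, 26.0% lower and 36.2% higher. In bulk RNA, fewer cells in a phase of the cycle and less RNA per cell cannot be told apart.

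**Figure D1:**
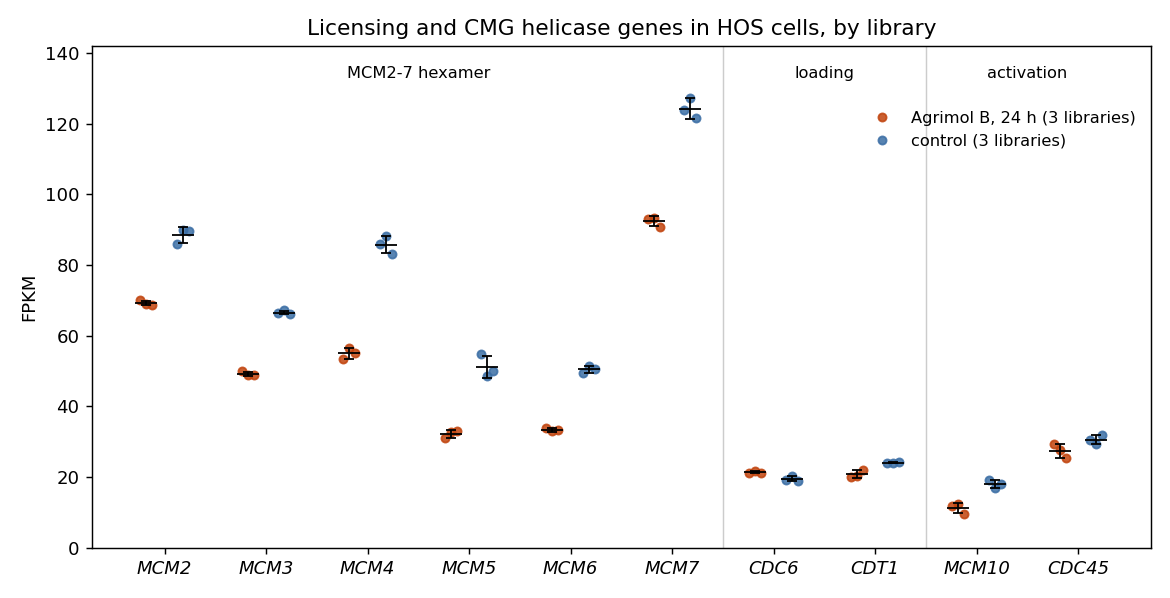
FPKM (vertical axis) of the 10 genes in each library, grouped by role, with Agrimol B libraries in orange and control libraries in blue, each group's mean as a bar and its SD as whiskers (n = 3 libraries per group). The ring subunits stand lower with Agrimol B, with MCM7 at 90.8 to 93.4 FPKM against 122 to 127 FPKM in control, while the groups of CDC6, CDT1 and CDC45 lie close to each other.

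The ring subunits are ATPases that sit side by side in a fixed order. MCM5 (chromosome 22, 35400063 to 35425430, plus strand; hg38, GENCODE release 29), which with MCM2 forms the gate through which DNA enters, had 31.0, 32.6 and 33.0 FPKM in Agrimol B libraries, against 54.7, 48.7 and 50.1 FPKM in control libraries. The highest Agrimol B value was well below the lowest control value. MCM5 fell 1.59-fold, a log2 difference of -0.65 (95% interval -0.79 to -0.51, adjusted p = 0.000290). MCM4 (chromosome 8, 47960185 to 47978160, plus strand), part of the MCM4, MCM6 and MCM7 core that has helicase activity of its own, had 53.3, 56.6 and 55.1 FPKM with Agrimol B, against 86.0, 88.1 and 83.2 FPKM in control. The groups did not overlap, and the gap between them was several times the spread within either. The fall was 1.56-fold (log2 difference -0.63, 95% interval -0.73 to -0.53, adjusted p = 0.000113). MCM6 (chromosome 2, 135839626 to 135876426, minus strand), which also binds CDT1 during loading, had 33.9, 32.9 and 33.2 FPKM with Agrimol B, against 49.4, 51.3 and 50.5 FPKM in control. These libraries were tight within each group, and MCM6 had the lowest adjusted p of the 10 genes. It fell 1.51-fold (log2 difference -0.58, 95% interval -0.67 to -0.49, adjusted p = 9.91e-05).

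The other 3 subunits had smaller differences. MCM3 (chromosome 6, 52264009 to 52284881, minus strand), the subunit through which the ring is recruited to ORC and CDC6, had 49.9, 48.9 and 48.7 FPKM with Agrimol B, against 66.3, 67.1 and 66.2 FPKM in control. It fell 1.35-fold (log2 difference -0.43, 95% interval -0.51 to -0.35, adjusted p = 0.000202). Here too all Agrimol B libraries were below all control libraries. MCM7 (chromosome 7, 100092728 to 100101940, minus strand), the most abundant of the 10 per length and the host gene of a microRNA cluster, had 92.9, 93.4 and 90.8 FPKM with Agrimol B, against 124, 127 and 122 FPKM in control. It fell 1.35-fold (log2 difference -0.42, adjusted p = 0.000246). MCM2 (chromosome 3, 127598223 to 127622436, plus strand), a histone-binding subunit and a target of the CDC7 kinase, had 70.0, 69.0 and 68.8 FPKM with Agrimol B, against 86.0, 89.8 and 89.6 FPKM in control. It had the smallest fall of the ring, 1.28-fold (log2 difference -0.35, 95% interval -0.44 to -0.26, adjusted p = 0.000513), and its groups were still apart. The intervals of MCM4, MCM5 and MCM6 lay wholly below that of MCM2; the difference between subunits was not tested.

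Because the ring holds each subunit once, the shares of the 6 in their summed FPKM were computed. The sum was 331 ± 1.90 FPKM with Agrimol B and 467 ± 5.67 FPKM in control (SD, n = 3 libraries each), lower by 1.41-fold. MCM2 made up 20.7% to 21.1% of it with Agrimol B and 18.4% to 19.4% in control, and MCM7 27.5% to 28.1% and 26.4% to 27.0%. MCM4 made up 16.1% to 16.98% with Agrimol B and 18.05% to 18.7% in control. The share was thus larger for MCM2, MCM3 and MCM7 and smaller for MCM4, MCM5 and MCM6 with Agrimol B, with groups that did not overlap for any of the 6. The shares add to a whole, so they are not independent of each other. Their directions follow from the folds above, and the shares add no separate evidence. The most abundant subunit stood 2.87 ± 0.122 times above the least abundant with Agrimol B and 2.52 ± 0.0945 times in control. MCM2 and MCM4 overlapped in level in control but not with Agrimol B, where MCM2 was higher, and MCM5 and MCM6 overlapped in both groups.

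Of the loading factors CDT1 fell and CDC6 did not pass the test. CDC6 (chromosome 17, 40287633 to 40304657, plus strand), the ATPase that completes the loading platform on ORC, had 21.2, 21.7 and 21.2 FPKM with Agrimol B, against 19.2, 20.3 and 18.9 FPKM in control. Its Agrimol B values were all above its control values by a small margin. The log2 difference was 0.13 (95% interval 0.02 to 0.24, adjusted p = 0.0537), and it was 0.06 with median-ratio scaling (adjusted p = 0.271) and 0.06 with quantile normalization (adjusted p = 0.336). Over all alternatives the adjusted p ran from 0.0465 to 0.336. CDT1 (chromosome 16, 88803213 to 88809258, plus strand), which brings the ring to ORC and CDC6 and is destroyed in S phase, had 20.1, 20.4 and 22.1 FPKM with Agrimol B, against 23.9, 23.9 and 24.1 FPKM in control. All 3 Agrimol B values were below a tight control group. CDT1 fell 1.15-fold (log2 difference -0.20, 95% interval -0.32 to -0.08, adjusted p = 0.0174). This call was lost without the second Agrimol B library (adjusted p = 0.0553) and without the third control library (adjusted p = 0.0518), over a range of 0.00552 to 0.0553.

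The activation factors are MCM10, a DNA-binding scaffold needed for the helicase to start unwinding, and CDC45, a subunit of the CMG helicase itself. MCM10 (chromosome 10, 13161554 to 13211104, plus strand) had 11.8, 12.4 and 9.55 FPKM with Agrimol B, against 19.0, 16.95 and 18.02 FPKM in control. The third Agrimol B library was the lowest of the 6, and the groups did not overlap without it either. MCM10 fell 1.6-fold (log2 difference -0.64, 95% interval -0.89 to -0.39, adjusted p = 0.00300), the largest ratio of means among the 10 genes and the widest interval. CDC45 (chromosome 22, 19479459 to 19520612, plus strand) had 29.2, 27.6 and 25.4 FPKM with Agrimol B, against 30.4, 29.4 and 31.9 FPKM in control. The highest Agrimol B value and the lowest control value almost met. The log2 difference was -0.15 (95% interval -0.31 to 0.003, adjusted p = 0.0905). CDC45 was called lower with median-ratio scaling (-0.22, adjusted p = 0.0338) and with quantile normalization (-0.21, adjusted p = 0.0303), over a range of adjusted p from 0.0303 to 0.223.

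**Figure D2:**
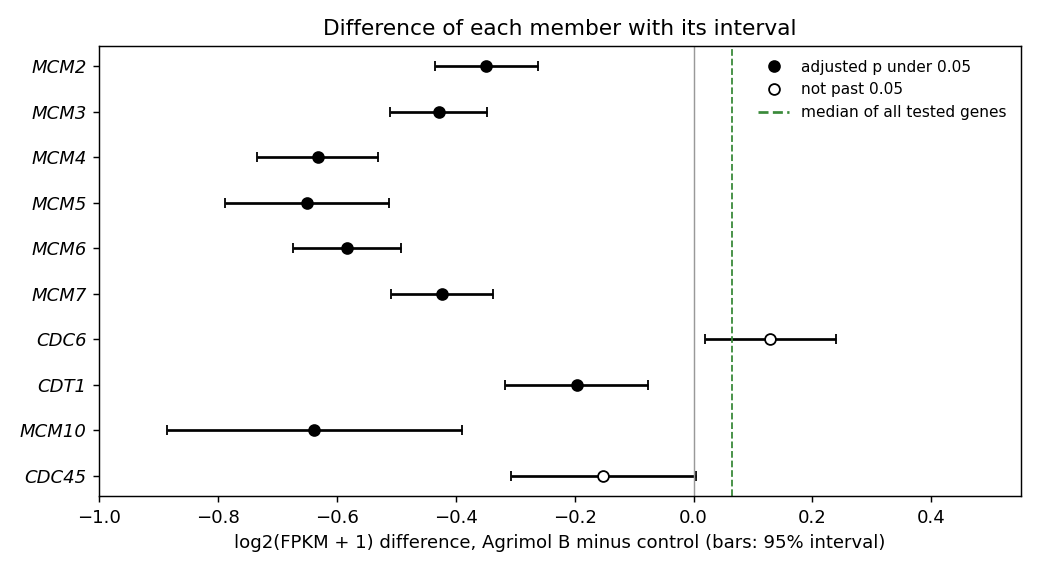
Difference of log2(FPKM + 1), Agrimol B minus control (horizontal axis), of the 10 genes, with bars for the 95% interval from limma and filled points for an adjusted p under 0.05; the dashed line is the median of all genes tested, 0.07. The intervals of the 6 ring subunits and MCM10 lie between -0.89 and -0.26, that of CDC6 from 0.02 to 0.24.

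Within each library the loading pair and the activation pair were set against each other, 2 pairs in all. The ratio of CDC6 to CDT1 was 1.03 ± 0.0571 with Agrimol B and 0.812 ± 0.0340 in control (SD, n = 3 libraries each; exact permutation test, two-sided, p = 0.10, adjusted p = 0.10). The ratio of MCM10 to CDC45 was 0.410 ± 0.0372 with Agrimol B and 0.590 ± 0.0323 in control (exact permutation test, two-sided, p = 0.10, adjusted p = 0.10). In both pairs all 3 Agrimol B libraries lay on 1 side of the control libraries, and 0.10 is the smallest p that 3 against 3 allows. For CDC6 and CDT1 this outcome was fixed by the levels above, CDC6 being higher and CDT1 lower in every Agrimol B library. The test of that ratio thus adds nothing to them. In control CDT1 stood above CDC6 in every library, while with Agrimol B their values overlapped. MCM10 was the lowest of the 10 genes with Agrimol B, and in control it overlapped CDC6.

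**Figure D3:**
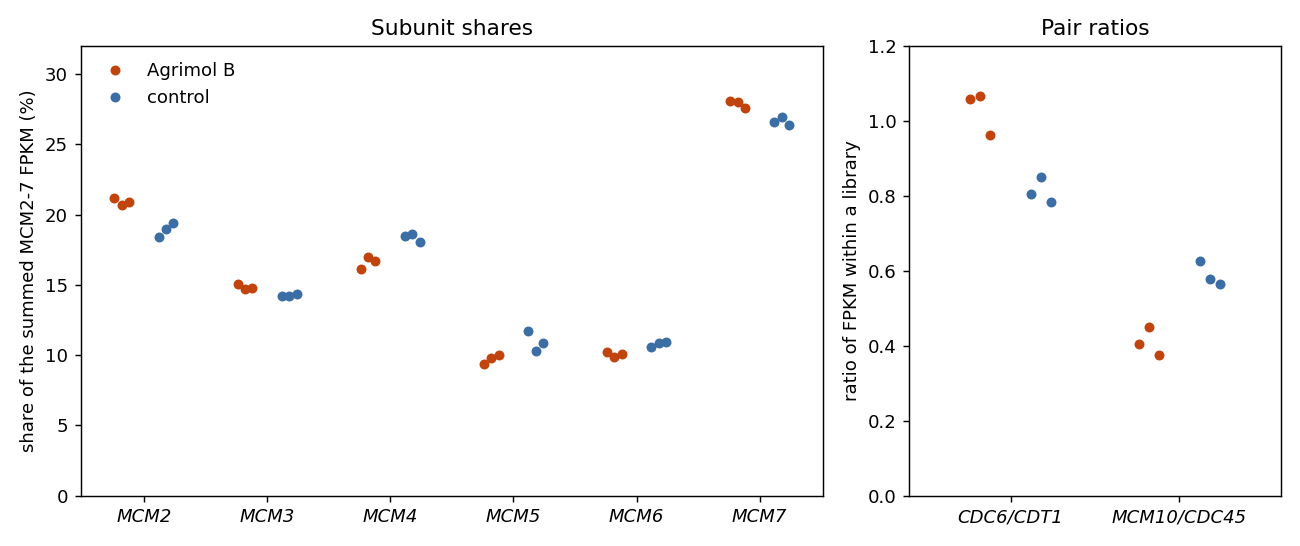
Left, share of each subunit in the summed FPKM of MCM2 to MCM7 (%); right, ratio of FPKM within a library for the loading pair and the activation pair; each point is 1 library, Agrimol B in orange and control in blue. MCM4 makes up 16.1% to 16.98% with Agrimol B and 18.05% to 18.7% in control, and the ratio of MCM10 to CDC45 averages 0.410 and 0.590.

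Promoter sequence was examined because these genes are textbook E2F targets and moved unequally. RefSeq windows of 300 bases (GRCh38.p14), 250 before and 50 after an annotated start, were on hand for 8 of the 10 genes, and MCM4 and MCM5 are only named here. The letters TTTNGCGC, a form of the E2F recognition sequence, occurred on either strand in 6 of these 8 genes and in 3.68% of the 9645 tested genes with a window (4.11% of those called lower). Those 6 were MCM2, MCM3, MCM6, MCM7, CDT1 and CDC6. The other E2F form searched, GGCGGGAA, occurred in 2 of the 8, MCM3 and CDT1, and in 6.61% of tested genes. CCAAT occurred in 6 of the 8 and in 43.4% of tested genes. TTTGAA, the core of the CHR element of late cell-cycle genes, occurred in 0 of the 8 and in 13.4% of tested genes. Sites of 30 bases are shown for the 6 genes with TTTNGCGC, 5′ to 3′ on the gene's strand. The CDT1 site shown holds GGCGGGAA, and its TTTNGCGC match, 213 bases before the start, is not shown. Capitals mark the E2F letters, which in MCM6 and MCM2 are overlapping matches on both strands:
MCM6 (chr2:135876513-135876542, minus): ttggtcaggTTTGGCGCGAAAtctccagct
MCM2 (chr3:127598404-127598433, plus): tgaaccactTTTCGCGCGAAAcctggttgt
MCM3 (chr6:52284728-52284757, minus): agttcggaagtTTTCGCGCcggggtggagt
MCM7 (chr7:100101388-100101417, minus): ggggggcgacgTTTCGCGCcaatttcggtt
CDT1 (chr16:88803754-88803783, plus): gcgggaaatttGGCGGGAAccgcgcccgcc
CDC6 (chr17:40287875-40287904, plus): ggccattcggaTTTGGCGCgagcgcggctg

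MCM6, which fell 1.51-fold, and CDC6, which did not pass the test, thus share the letters TTTGGCGC near their starts. In MCM7 the match overlaps a CCAAT. A match describes the letters of the window and shows no binding. MCM10 fell 1.6-fold with no match to either E2F form in its window, and neither form was in the windows of CDC45. Only these exact letters in these windows were searched, so a missing match does not show that a site is absent. Whether the matches bear on the differences was not tested. MCM6 held the most matches to TTTNGCGC, so its upstream 250 bases (chr2:135876444-135876693, minus strand) are shown, with capitals for 4 such matches in 2 sites, each with overlapping matches on both strands, which begin 152 and 90 bases before the start, and for 2 CCAAT boxes, both read on the opposite strand:
MCM6 upstream: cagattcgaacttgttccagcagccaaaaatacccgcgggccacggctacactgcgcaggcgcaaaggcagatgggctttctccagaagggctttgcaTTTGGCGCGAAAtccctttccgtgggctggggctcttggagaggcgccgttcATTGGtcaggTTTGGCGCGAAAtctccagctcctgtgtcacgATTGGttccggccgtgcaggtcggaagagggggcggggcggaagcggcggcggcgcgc

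Of the 10 genes, 4 start within 1000 bases of a protein-coding gene on the opposite strand, head to head. Starts here are the outer ends of the GENCODE genes. They can differ from the RefSeq starts of the promoter windows, as in MCM2 and MCM7. MCM4 starts 2 bases from PRKDC, the catalytic subunit of DNA-dependent protein kinase, which had 71.2, 82.3 and 76.9 FPKM with Agrimol B and 91.9, 73.7 and 86.9 FPKM in control. The groups of PRKDC overlapped (log2 difference -0.13, adjusted p = 0.308), unlike those of MCM4. MCM2 starts 44 bases from TPRA1, which had 21.1, 26.1 and 26.5 FPKM with Agrimol B and 12.8, 11.5 and 9.01 FPKM in control. TPRA1 rose 2.21-fold (adjusted p = 0.00148) while MCM2 fell. CDC45 starts 244 bases from UFD1, a cofactor in ubiquitin-dependent degradation, which fell 1.29-fold (20.8 ± 0.284 FPKM with Agrimol B, 26.8 ± 1.93 FPKM in control, adjusted p = 0.00370). MCM7 starts 391 bases from AP4M1, which had 4.97 ± 0.6 FPKM with Agrimol B and 5.70 ± 0.679 FPKM in control (adjusted p = 0.228). Exons of MCM2 and TPRA1, and of MCM7 and AP4M1, overlap on opposite strands. The kit marks strand, but the use of strand in computing FPKM is not given, and without it reads in those overlaps cannot be told apart.

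The genes around the 10 in the pathway were read from 9 lists by role, 94 genes, of which 93 were in the table and tested. Of these 47 fell and 11 rose, with a median log2 difference of -0.21. Of the 6 genes of the origin recognition complex, 1 fell and 2 rose, shares near those over all tested genes (21.4% and 30.6%), and nothing about the complex is read from the count. Their median was 0.13, but 0.08 without the first Agrimol B library, 0.08 without the first control library, 0.07 with median-ratio scaling and 0.05 with quantile normalization. ORC1, the ATPase subunit whose level cycles, had 11.6 ± 0.310 FPKM with Agrimol B and 17.6 ± 0.824 FPKM in control (SD, n = 3 libraries each here and below; adjusted p = 0.000347). ORC6, which binds the rest of the complex loosely, stood at 50.9 ± 8.92 and 34.9 ± 1.16 FPKM (adjusted p = 0.0123), and ORC5 at 24.0 ± 2.29 and 18.2 ± 1.10 FPKM (adjusted p = 0.00920). The 4 GINS genes, the remaining subunits of CMG, all fell, with a median of -0.54. GINS1 fell 1.68-fold, GINS4 1.5-fold and GINS2 1.47-fold.

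Of 13 genes that control licensing, 4 fell and 2 rose, beside 21.4% lower and 30.6% higher over all tested genes. Nothing about licensing control is read from the count. The median of the 13 genes was -0.03, and it moved with scaling and with single libraries. It was -0.09 with median-ratio scaling, -0.11 with quantile normalization, -0.11 without the first Agrimol B library and -0.01 without the third. SKP2, an F-box protein that directs CDT1 and p27 to degradation, fell 2.57-fold, to 30.3 ± 1.27 FPKM with Agrimol B, against 78.0 ± 13.2 FPKM in control (adjusted p = 0.000410). Cyclin F (CCNF), an F-box protein that targets CDC6, fell 2.11-fold, to 8.10 ± 0.611 FPKM against 17.1 ± 0.315 FPKM in control (adjusted p = 9.64e-05). Geminin (GMNN), the inhibitor of CDT1, fell 1.52-fold (adjusted p = 0.00611). The ligase scaffold CUL4A rose 1.16-fold and the deubiquitinase USP37 1.34-fold. DTL, which brings CDT1 to the CUL4 ligase, had a log2 difference of -0.03 (adjusted p = 0.799).

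Of 14 origin firing factors, 9 fell and 0 rose, with a median of -0.34. Over all tested genes 21.4% were called lower and 30.6% higher. The cyclins A2 (CCNA2), E1 (CCNE1) and E2 (CCNE2), which activate CDK2, fell 1.75-fold, 1.69-fold and 1.74-fold. CDK2 itself had 14.2, 26.6 and 13.6 FPKM with Agrimol B, against 20.4, 19.8 and 20.8 FPKM in control, a log2 difference of -0.22 (adjusted p = 0.486). The second Agrimol B library stood apart, and without it the difference was -0.51 (adjusted p = 0.00193). Under every other alternative CDK2 did not pass (adjusted p = 0.362 to 0.872). That fit was picked out after the values were seen, so no fall of CDK2 is read from it. MCM8, MCM9 and HROB (C17orf53 in the table), which act together in recombination and not in licensing, did not pass, with log2 differences of 0.45, 0.15 and 0.17 (adjusted p = 0.149, 0.0957 and 0.10). MCM8 was again set apart in the second Agrimol B library, at 13.0 FPKM beside 24.6 and 23.1 FPKM in the other Agrimol B libraries. In control it had 13.6 to 14.7 FPKM. Without that Agrimol B library the difference of MCM8 was 0.72 (adjusted p = 0.00118). Under every other alternative it did not pass (adjusted p = 0.124 to 0.359), and no rise is read from the fit picked out.

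At the fork, 7 of 12 replicative polymerase and primase genes fell and 2 rose (median -0.23). POLE2 of polymerase epsilon fell 1.63-fold and POLD1, the catalytic subunit of polymerase delta, 1.37-fold. The small subunits POLD4 and POLE3 rose 1.46-fold and 1.32-fold. Of 13 genes of the clamp, its loader and Okazaki fragment processing, 8 fell and 1 rose (median -0.19). The clamp PCNA fell 1.59-fold, to 88.7 ± 2.15 FPKM against 141 ± 14.4 FPKM in control (adjusted p = 0.000904), the ligase LIG1 1.52-fold and the loader subunit RFC3 1.35-fold. RNASEH2A, of the nuclease that removes ribonucleotides, rose 1.14-fold. That call was lost with median-ratio scaling (adjusted p = 0.0844), with a replicate block (adjusted p = 0.0513) and without the third Agrimol B library (adjusted p = 0.0550). The count of 8 became 5 with the replicate block, without the second Agrimol B library, and without the second or the third control library. Of 11 fork protection genes, 5 fell and 1 rose (median -0.15), beside 21.4% lower and 30.6% higher over all tested genes. DSCC1, a subunit of the alternative clamp loader, fell 1.86-fold, TIPIN 1.34-fold and ATAD5, which unloads the clamp, 1.36-fold. CHTF18, another subunit of the alternative clamp loader, rose 1.13-fold, a call lost in 8 of 14 alternatives (adjusted p up to 0.133). The call of TIPIN was lost without the first Agrimol B library and without the second or the third control library (adjusted p = 0.0508 to 0.0573).

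Among 17 genes listed as E2F factors and pocket proteins, 9 fell and 3 rose (median -0.16). The list also holds LIN9, LIN37, LIN54 and MYBL2, which are neither. Of all tested genes, 21.4% were called lower and 30.6% higher. The widest differences were those of the atypical E2Fs, which repress E2F targets. E2F7 rose 3.21-fold, to 43.5 ± 1.2 FPKM against 13.6 ± 1.24 FPKM in control (adjusted p = 3.33e-05), and E2F8 fell 2.87-fold, to 4.52 ± 0.341 FPKM against 13.0 ± 0.198 FPKM in control (adjusted p = 3.73e-05). LIN37, of the MuvB complex, rose 2.35-fold and the E2F4 factor, which works with pocket proteins in quiescence, 1.22-fold. The call of E2F4 was lost without the first or the third Agrimol B library and without the second control library (adjusted p = 0.0511 to 0.0525). Others that fell were E2F2, 2.38-fold (adjusted p = 0.000376), MYBL2, 1.94-fold (adjusted p = 2.63e-05), and E2F1, 1.19-fold (adjusted p = 0.00387). E2F3 did not pass (log2 difference -0.32, adjusted p = 0.112). Exon overlaps of E2F1, E2F2, E2F3 and MYBL2 were not examined. POLD4, POLD1, RNASEH2A, LIN37 and TIPIN share exon sequence on their strand with another annotated gene, and their values are uncertain for that reason. Exons of GINS2, CUL4A, USP37, CCNA2, CCNE2, POLE3 and CHTF18 overlap those of a protein-coding gene on the opposite strand, and exons of GINS4, CCNF, LIG1, ATAD5, E2F8 and LIN37 those of antisense or other noncoding genes. With the use of strand not given, these values carry the same limit as MCM2 and MCM7.

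**Figure D4:**
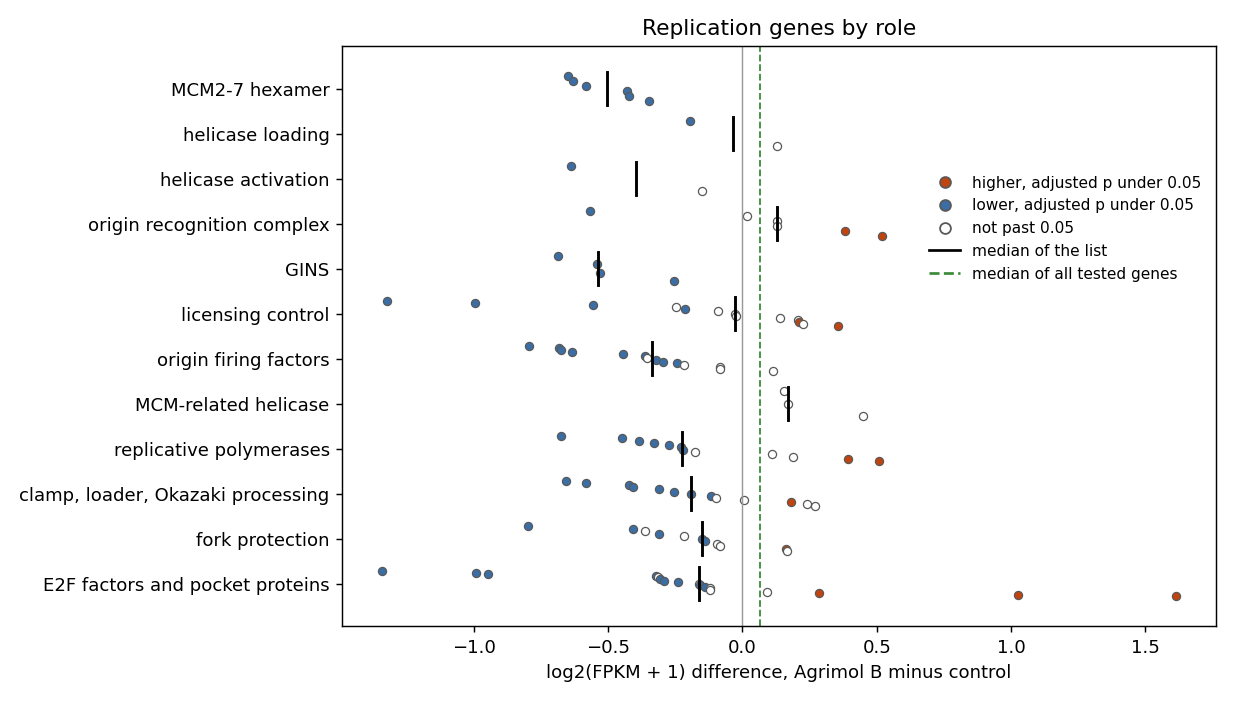
Difference of log2(FPKM + 1), Agrimol B minus control (horizontal axis), of each tested gene in 12 groups by role, orange for higher and blue for lower at an adjusted p under 0.05, white for no call, with black bars for list medians and a dashed line for the median of all genes tested. All 6 ring subunits and all 4 GINS genes are blue, while the origin recognition complex holds 1 blue and 2 orange points.

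To see which other genes moved like the 10, each tested gene was centred on its control mean and its distance to the mean of the 10 was taken over the 6 libraries (root mean square, log2 scale). In the Agrimol B libraries that mean stood at -0.38, -0.37 and -0.42. The 5 nearest genes were VIM, ATP1B1, GRAMD1A, TRAM2 and NDUFS5, at distances of 0.0090 to 0.0170, and 0 of them belong to the lists by role. All but NDUFS5 have exons that overlap those of a gene on the opposite strand. NDUFS5, of respiratory complex I, had 116 ± 1.07 FPKM with Agrimol B and 154 ± 1.07 FPKM in control, and ATP1B1, a sodium pump subunit, 28.3 ± 0.380 and 37.4 ± 0.226 FPKM. Of the 10 genes themselves, MCM7 and MCM3 were nearest to the mean (0.0292 and 0.0299) and CDC6 farthest (0.37). Of all tested genes, 13.1% to 14.5% had a lower difference than each of these 5.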

How the data were processed

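The authors deposited 1 table of FPKM values with 1 column per library (6 columns, all used). Per the labels' protocols, a kit for stranded mRNA libraries was used. Per the submitters' processing notes, FastQC, cutadapt, Trimmomatic, HISAT and the build hg38 were used, with no versions or roles. Which program and annotation gave the FPKM values is not stated. Control columns were matched to samples by number, since their letters are swapped against the samples' descriptions.

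FPKM values are not counts, so log2(FPKM + 1) was tested. Every gene averaging 1 FPKM or more was fitted with limma 3.58.1 in R 4.3.3, using a group term and a variance trend. P-values are two-sided and carry the Benjamini-Hochberg adjustment across the genes tested. A fold is the ratio of group means of FPKM. For low genes the differences of log2(FPKM + 1) understate the change, and the folds do not carry this limit. The steps were tested on simulated data. Python 3.11.15 with pandas 2.3.3, scipy 1.17.1 and matplotlib 3.10.9 did the rest. Coordinates are from GENCODE release 29, and promoter sequences from RefSeq (GRCh38.p14), matched by symbol.

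The 10 genes, the lists by role and the tests were chosen with earlier results of these data known. From each list outside the 10, up to 3 called genes with the largest differences and every called gene that moved against most of its list were named, besides the 5 genes nearest in pattern. DTL, CDK2, MCM8, MCM9, HROB, E2F1, E2F2, E2F3 and MYBL2 were named after their values were seen. The 14 alternatives changed the pseudocount, filter, scaling, variance model or block, or left out a library.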

Additional observations from a re-analysis of the deposited data

How the results depend on the processing

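The 6 ring subunits and MCM10 kept their direction and call under all 14 alternatives, with adjusted p at most 0.0129. CDC45 passed with median-ratio scaling (-0.22) and quantile normalization (-0.21). CDC6 passed with a filter of 5 FPKM (0.13), where 1 of the 10 genes was thus called higher in place of 0. Leaving out 1 library at a time, CDC6 ran from 0.11 to 0.16, past the threshold only without the second control library, CDT1 from -0.24 to -0.17 and CDC45 from -0.20 to -0.10. The 10 genes then held 0 to 1 called higher and 7 to 8 called lower. The count of all genes called lower ran from 2250 to 2406 in those fits. With median-ratio scaling 3089 genes were called higher and 3148 lower, and with quantile normalization 3101 and 3083. With the replicate number as a block the calls among the 10 genes were the same 8, with adjusted p of 0.00249 to 0.0417 (log2 difference of CDT1 -0.20), and 5776 genes were called in all. Same-numbered libraries did not deviate together (r = 0.04, -0.01 and -0.01), so the numbers are not taken to pair them. Of 35 other genes named by the rules above, 31 kept direction and call under every alternative. FPKM values carry no counting error, so how far depth limits the smaller differences is unknown.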
